A study of Mus musculus with 8 samples.

Results

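The cells described here are caudal progenitors, the neuromesodermal progenitors and caudal epiblast at the tail end of the gastrulating mouse embryo. They were picked from single-cell RNA-seq libraries as cells with at least 1 UMI (unique molecular identifier, one counted mRNA molecule) of *T*, at least 1 UMI of *Nkx1-2* and 0 UMIs of *Tbx6*. The rule found 2094 such cells among 49866 cells that had at least 1500 UMIs, at most 30% of UMIs in mitochondrial genes and at most 35% in ribosomal protein genes. The study asked what embryonic cells do when the TET enzymes, which oxidise methylated cytosine and start its removal, are missing. Embryos were chimaeras in which *Tet*-TKO ES cells, lacking *Tet1*, *Tet2* and *Tet3* and marked with tdTomato, developed beside the wildtype cells of a C57BL/6J host. Pooled embryos were sorted by flow cytometry into tdTomato-positive cells (*Tet*-TKO, background C57BL/6J-129Sv) and tdTomato-negative cells (WT host, background C57BL/6J), and both fractions had grown in the same kind of mixed embryo. E8.5 was covered by 4 libraries of *Tet*-TKO cells and 2 of host cells, and E7.5 by 1 library of each. The *Tet*-TKO cells came from an ES cell line of mixed background and the host cells from natural blastocysts, so the missing enzymes, the strain and the passage through culture cannot be told apart. *Xist*, the RNA of the inactive X chromosome, also differed between the fractions, so a difference in sex chromosomes cannot be told apart from these either.

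Neuromesodermal progenitors lie in the epiblast beside the node and in the caudal lateral epiblast, and feed both the spinal cord and the paraxial mesoderm as the trunk lengthens. They hold *T* (brachyury, the mesodermal T-box factor) together with the neural factor *Sox2*, and *Nkx1-2* marks the preneural caudal epithelium. WNT and FGF ligands made in the tail bud keep them undifferentiated and act through the CDX factors, while CYP26A1 breaks down the retinoic acid that would otherwise drive differentiation. *Tbx6* comes on when a cell commits to presomitic mesoderm, and for that reason cells with *Tbx6* were left out.

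At E8.5 the picked cells carried *Cdx2* and *Wnt3a*, the other 2 markers of the caudal progenitor state, which the rule did not use. There, *Cdx2*, a caudal homeobox gene, had 281 to 415 CPM (counts per 1000000 UMIs of the summed cells) in the 6 libraries, against 39.5 to 114 CPM in all other cells. *Wnt3a*, the tail bud WNT ligand, had 13.5 to 28.2 CPM against 1.68 to 4.45 CPM, and 23.5% to 34.4% of the picked cells had a UMI of it. The list of 29 progenitor genes used below did not set the picked cells apart from cells with both *T* and *Tbx6* in every library. Its summed CPM was higher in the cells with both genes in *Tet*-TKO libraries 1, 3 and 4. It was higher in the picked cells in *Tet*-TKO library 2 and in both host libraries. When 7349 genes were ordered by the smallest of the 6 library differences between caudal progenitors and other cells, on the log2(CPM + 1) scale, *Nkx1-2* came first (2.94), followed by the ephrin receptor gene *Epha5* (2.94), *Fgf17* (2.41), *Hoxaas3* (2.31), *Cdx1* (2.26) and *Hoxb9* (2.22). *Cdx2* stood at rank 24, *Wnt3a* at rank 27 and *Sox2* at rank 93, with a smallest difference of 0.68, while *Fgf3*, *Fst* and *Wnt5a* were below other cells in at least 1 library (-0.91, -0.76 and -0.20). In the E7.5 libraries *Sox2* was lower in the picked than in other cells (-1.09 in the *Tet*-TKO and -0.55 in the host) and *Cyp26a1* as well (-0.53 and -1.23). Genes of the neighbouring lineages were not all low. The presomitic mesoderm list summed to 342 to 571 CPM, against 1601 to 2050 CPM in cells with both *T* and *Tbx6*, and its members *Hes7*, a clock gene, and *Dll3*, a Notch ligand, were at 52.0 to 91.4 CPM and 22.5 to 44.8 CPM, and stood at ranks 14 and 56 in the order above. *Msgn1*, the master regulator of presomitic mesoderm, had 0 to 1.43 CPM, and *Noto*, which marks the notochord, had 0 to 1.11 CPM. *Sox17* (endoderm) had 4.43 to 15.7 CPM, and UMIs of it were present in 3.15% to 13.7% of cells. The allantois and lateral mesoderm list was below other cells in each E8.5 library. At E7.5 it was above them, at 623 against 472 CPM in the *Tet*-TKO and, by little, at 333 against 330 CPM in the host. At E8.5 *Hand1* UMIs were in 192 of 408, 104 of 416, 49 of 131 and 26 of 73 picked cells of *Tet*-TKO libraries 1 to 4. In the E8.5 host libraries they were in 23 of 142 and 7 of 127. *Foxf1*, *Hand2* and *Twist1* UMIs were also in a higher share of picked cells in every *Tet*-TKO library than in either host library. None of these shares was taken from thinned cells. The order is a description, since the rule picked the cells by 2 of these genes.

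The edge of the rule can be read from the cells closest to it. Caudal progenitors with exactly 1 UMI of *T* and 1 of *Nkx1-2* had 154 to 381 CPM of *Cdx2* in the E8.5 libraries. Cells just outside, which met the rule except for 1 UMI of *Tbx6*, had 285 to 437 CPM of *Cdx2*. *Wnt3a* was at 0 to 11.7 CPM just inside and at 34.1 to 67.8 CPM just outside. The cells inside were taken at 1 UMI of *T* and *Nkx1-2* and those outside at any number, so the sets are not matched in these 2 genes.

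The E8.5 libraries held 65601218 to 136982886 UMIs, and the caudal progenitors had a median of 12504 to 79742 UMIs per cell, which was deepest in *Tet*-TKO libraries 3 and 4. *Tet*-TKO libraries 1 and 2 differed from each other by 3.17 times counting error (a chi-square over genes divided by its degrees of freedom), libraries 3 and 4 by 4.88 times, and the pairs from one another by 20.4 to 27.8 times, so the 4 libraries stand as 2 pairs. The labels do not say which libraries came from separate pools of embryos, and p-values measure the spread between libraries, which may in part be technical. tdTomato UMIs were present in 62.5% to 92.4% of *Tet*-TKO and 1.28% to 1.57% of WT host caudal progenitors over both stages. *Tet1* was at 12.3, 15.5, 22.8 and 22.2 CPM for *Tet*-TKO replicates 1 to 4, against 23.8 and 31.6 CPM for the host replicates (log2 fold change -0.60, adjusted p = 0.445, edgeR). Counting at the 3′ end does not check a deletion elsewhere in the gene. A doublet caller was set to mark about the expected number of cells in each library, and marked cells were kept. It marked 11.8%, 16.1%, 6.11% and 1.37% of caudal progenitors in E8.5 *Tet*-TKO libraries 1 to 4. Of all cells there it marked 5.92%, 8.09%, 2.04% and 1.19%. In the E8.5 host libraries it marked 7.04% and 8.66%, beside 7.22% and 7.62% of all cells. At E7.5 it marked 4.95% (*Tet*-TKO) and 14.1% (host), beside 5.04% and 6.02%. The part of doublets in the shares below was not tested.

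At E8.5 the share of caudal progenitors was higher in every *Tet*-TKO library than in either host library, though the exact permutation test used cannot reach a p under 0.05 with 4 against 2 libraries. Because the rule needs 2 genes to be detected, each cell was thinned to 5000 UMIs before the count, and the 76 to 724 shallower cells of each E8.5 library were left out. The share was then 1.57%, 1.51%, 0.853% and 1.85% for *Tet*-TKO replicates 1 to 4, against 0.558% and 0.577% for the host. The means were 1.44% ± 0.420 (SD, n = 4) and 0.568% ± 0.0137 (SD, n = 2), a ratio of 2.54. An exact two-sided permutation test over the libraries gave p = 0.133, the smallest value this design allows. Each rule gene taken alone was also detected in more *Tet*-TKO cells at this depth, without overlap between genotypes. The means were 9.08% and 4.56% of all cells for *T* (ratio 1.99) and 6.01% and 3.51% for *Nkx1-2* (ratio 1.72, exact permutation p = 0.133 for both). Whether cells with both genes rose beyond this was not tested. The study reports hardly any difference in cell type proportions between injected wildtype ES cells and host cells of a published set. It also infers a slight delay of the E8.5 *Tet*-TKO embryos, and the part of stage in these shares was not tested. Without thinning the shares were 5.79%, 4.36%, 5.69% and 7.21% against 1.72% and 1.41%. At 3000 UMIs, where few cells were left to count, the shares were 0.782%, 0.709%, 0.309% and 0.836% against 0.337% and 0.207%, and the genotypes overlapped.

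**Figure D1:**
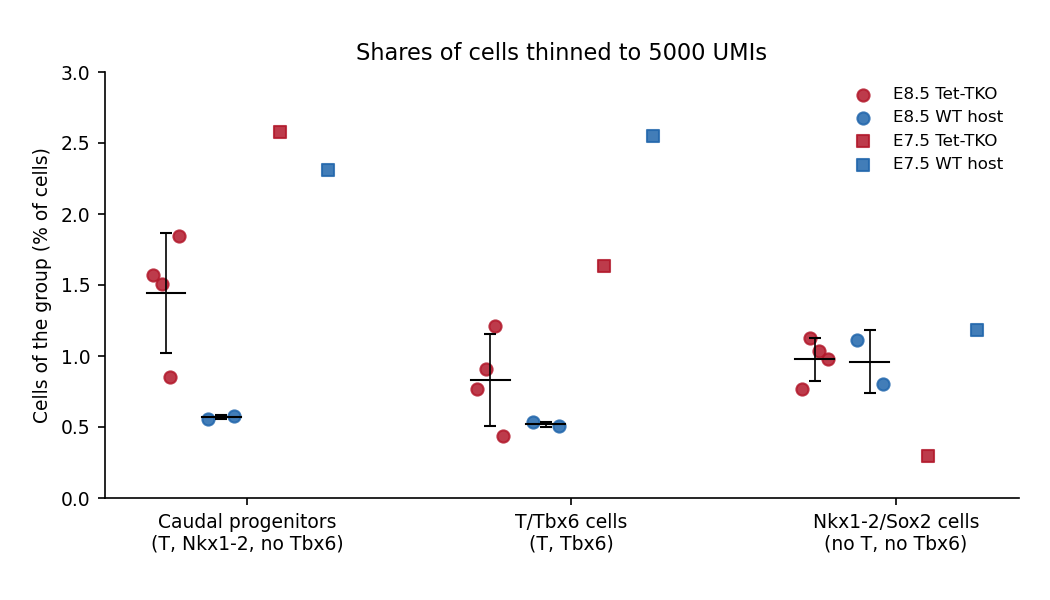
Share of cells (%, linear axis) in each library after every cell was thinned to 5000 UMIs, for caudal progenitors, T/Tbx6 cells and Nkx1-2/Sox2 cells; circles are E8.5 libraries, squares E7.5 libraries, and bars give the E8.5 mean ± SD. The *Tet*-TKO circles of the caudal progenitors (0.853% to 1.85%) all lie above the host circles (0.558% and 0.577%), while in the 2 other groups the genotypes overlap.

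The nearest groups of cells overlapped between genotypes, whereas the shares of all cells with *T* and of all cells with *Nkx1-2* did not. Whether the difference of the nearest groups departs from that of the caudal progenitors was not tested beyond the ratios given here. Cells with both *T* and *Tbx6* (T/Tbx6 cells, on the mesodermal side) took 0.769%, 0.908%, 1.21% and 0.434% of the *Tet*-TKO libraries and 0.532% and 0.505% of the host libraries, and these overlapped (exact p = 0.4). Cells with *Nkx1-2* and *Sox2* but neither *T* nor *Tbx6* (Nkx1-2/Sox2 cells, on the neural side) took 0.769% to 1.13% and 0.806% to 1.12%, which also overlapped (exact p = 1.0). For each Nkx1-2/Sox2 cell there were 2.04, 1.33, 0.826 and 1.89 caudal progenitors in the *Tet*-TKO libraries and 0.5 and 0.716 in the host libraries, without overlap (exact p = 0.133). For each T/Tbx6 cell there were 0.704 to 4.25 and 1.05 to 1.14, which overlapped (exact p = 0.533). Erythroid cells took up part of the total in the host libraries. With cells of at least 10% haemoglobin UMIs taken out of the total, the host shares were 0.596% and 0.724%, still below every *Tet*-TKO library (0.855% to 1.85%). Of such haemoglobin-rich cells, which should lack both genes, 0% to 0.0565% passed the rule before thinning. The *Tet*-TKO libraries held only 0, 11, 8 and 4 of these cells, too few to measure a background there. Of E8.5 cells with the cardiac genes *Tnnt2* and *Myl7*, 0%, 1.81%, 2.33% and 0% passed in *Tet*-TKO replicates 1 to 4. In the host libraries 0.362% and 0% did.

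*Sox2*, the neural member of the neuromesodermal pair, was detected in a lower share of *Tet*-TKO than of host caudal progenitors, again by a permutation test that cannot pass at this size. After thinning, 33.0%, 33.1%, 26.3% and 29.4% of the *Tet*-TKO caudal progenitors of replicates 1 to 4 had a *Sox2* UMI, against 37.2% and 52.1% in the host libraries. The groups did not overlap, with means of 30.5% ± 3.25 (SD, n = 4) and 44.6% ± 10.5 (SD, n = 2), and the exact permutation p was 0.133, again the smallest possible. These shares rest on 106, 136, 19 and 17 *Tet*-TKO and 43 and 48 host cells, so counting error is wide. The exact 95% binomial intervals were 22.98% to 53.3% and 37.2% to 66.7% in host libraries 1 and 2, and those of the *Tet*-TKO libraries reached up to 42.8%, 41.7%, 51.2% and 56.0%, so every *Tet*-TKO interval overlapped both host intervals. The separation did not hold at other depths. At 3000 UMIs the shares were 0% to 42.9% against 29.6% and 22.2%, at 10000 UMIs 35.02% to 51.9% with host library 1 at 51.2%, and without thinning 43.4% to 61.8% against 58.5% and 64.6%, with overlap in each. The difference in the E8.5 share of members with Sox2 (members being the caudal progenitors) was -14.2 percentage points with all libraries and -6.75 without host library 2.

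Expression was compared on UMIs summed over the caudal progenitors of each library, with edgeR's quasi-likelihood test across 12480 genes, *T* and *Nkx1-2* left out. A gene was called at a Benjamini-Hochberg adjusted p under 0.01 and an absolute log2 fold change of at least 1. This called 32 genes, 0.256% of those tested, of which 12 rose (0.0962%) and 20 fell (0.16%) in the *Tet*-TKO. At an adjusted p of 0.05 without a minimum fold there were 94 genes (0.753%), 30 higher (0.24%) and 64 lower (0.513%). The genotypes did not overlap, with all 4 *Tet*-TKO libraries lower, for 14.4% of all genes tested and, with all 4 higher, for 10.8%. *T* was at 163, 177, 100.04 and 85.4 CPM against 170.4 and 159, and *Nkx1-2* at 104, 127, 90.3 and 81.3 against 135 and 148. These 2 genes picked the cells and were not tested.

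The genes of the caudal progenitor state were mostly lower in the *Tet*-TKO cells, but few passed the test. Of a list of 29 progenitor genes, which was drawn up with these data known and all of which were tested, 25 had a log2 fold change below 0 and the median was -0.60, where the median of all genes was 0.02. None was called with edgeR, though DESeq2 called *Cdx4* and *Cyp26a1* lower, beside 86 of 12482 genes. The same 2 were lower at an adjusted p of 0.05 in edgeR. For 15 all *Tet*-TKO libraries lay below both host libraries, beside 14.4% of all genes. For none did all *Tet*-TKO libraries lie above, beside 10.8%. With *Tet*-TKO libraries 1 and 2 alone the median was -0.30, and with libraries 3 and 4 alone it was -0.77. The rule takes 1 UMI at any depth, so depth enters the picking of the cells. Caudal progenitors had medians of 21461, 14092.5, 45318 and 79742 UMIs in *Tet*-TKO libraries 1 to 4 and of 15728 and 12504 in the host. With the rule applied to cells thinned to 5000 UMIs the median fold change was -0.32 over 28 genes, none of which was called. The part of depth in these levels was not tested further. Without the filter on low counts edgeR called 3 of the list lower (*Cdx4*, *Cyp26a1* and *Wnt8a*), beside 146 of 24311 genes.

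**Figure D2:**
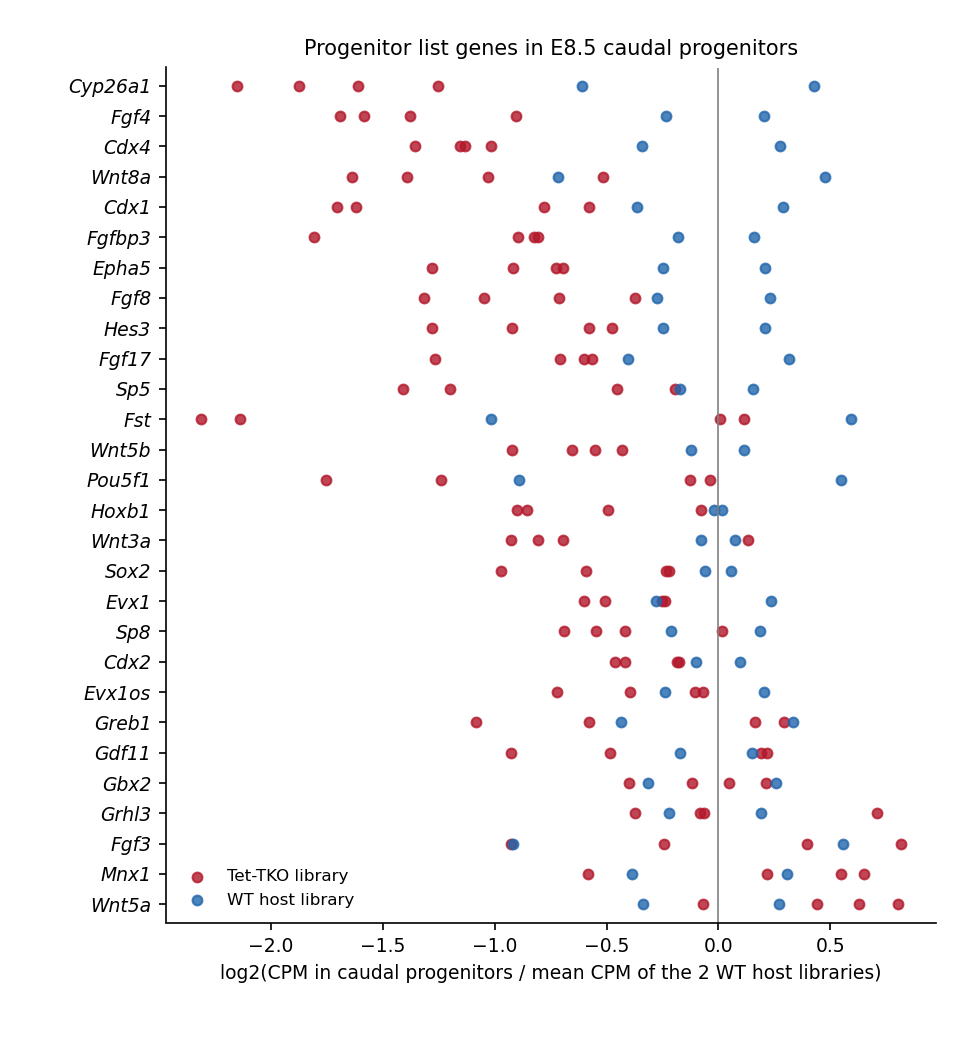
Progenitor list genes in caudal progenitors at E8.5 (28 of 29 drawn), each library's CPM divided by the mean of the 2 WT host libraries (log2 scale), 1 point per library. The red *Tet*-TKO points lie left of both blue host points for 14 of the genes drawn, among them *Cdx4*, *Cyp26a1*, *Epha5* and *Fgf17*, and for no gene do they all lie to the right.

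*Cdx4* gave the clearest difference among the CDX genes, the homeobox factors that pattern the posterior axis and keep the tail bud growing. The 4 *Tet*-TKO libraries held 175, 178, 192 and 152 CPM and the host libraries 308 and 472 CPM. All 4 *Tet*-TKO values lay under the lower host value, with a log2 fold change of -1.15 (SE 0.175, adjusted p = 0.0223). *Cdx4* was called with DESeq2, without the filter on low counts and with a rule of at least 2 UMIs of both genes, and without host library 2 its fold change was -0.80 with an adjusted p of 0.360. *Cdx1*, its paralogue and a direct WNT target, was at 160.5, 185, 89.6 and 84.5 CPM against 338 and 214 (log2 fold change -1.06, adjusted p = 0.314). *Cdx2* was at 344, 342, 291 and 281 CPM against 362 and 415, which did not overlap but differed by -0.29 only (adjusted p = 0.532).

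The promoter of *Cdx4* is shown because it was, with *Cyp26a1*, the progenitor gene past an adjusted p of 0.05, and TET enzymes act on methylated CpG sites. The gene lies on chromosome X (103321398-103330592, plus strand, mm10). *Xist*, on the same chromosome, had a mean of 9.60 CPM in *Tet*-TKO and 333 CPM in host caudal progenitors. The part of the X chromosomes in the *Cdx4* level was not tested. The 250 bases before its RefSeq start site (chrX:103321148-103321397, GRCm38.p6, plus strand) hold 5 CpGs, marked in capitals. No more than 5 CpGs are found in 49.6% of all RefSeq promoters of that length.
Cdx4 promoter: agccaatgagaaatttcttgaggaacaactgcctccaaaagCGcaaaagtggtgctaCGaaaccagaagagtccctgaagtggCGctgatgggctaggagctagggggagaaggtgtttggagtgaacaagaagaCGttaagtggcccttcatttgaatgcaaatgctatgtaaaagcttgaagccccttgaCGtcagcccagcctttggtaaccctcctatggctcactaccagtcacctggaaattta
A comparison of CpG content over the progenitor list was void, since 21 of its 29 genes were matched to a RefSeq promoter. Methylation was not measured in these libraries. The study measured it in other sorted single cells, erythroid cells among them. There it describes TET-dependent demethylation at distal regulatory elements and hardly any effect at promoters.

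*Cyp26a1*, which encodes the enzyme that clears retinoic acid from the tail bud, was the other gene past an adjusted p of 0.05. The *Tet*-TKO libraries held 24.9, 29.95, 38.4 and 20.5 CPM of it and the host libraries 60.01 and 123 CPM. The host libraries differed from each other by more than the *Tet*-TKO libraries did, yet both lay above all 4. The log2 fold change was -1.67 (SE 0.296, adjusted p = 0.0464), and without host library 2 it was -1.06 with an adjusted p of 0.612. Its promoter is shown because the gene is itself switched on by retinoic acid. The gene lies on chromosome 19 (37697798-37701536, plus strand, mm10), and the window chr19:37697558-37697807 (GRCm38.p6, plus strand) holds 20 CpGs. The capitals mark a match, at 37697776 to 37697792 and 15 bases before the RefSeq start site, to a direct repeat of AGTTCA with 5 bases between the copies, read on the minus strand. This is the layout of a retinoic acid response element.
Cyp26a1 promoter: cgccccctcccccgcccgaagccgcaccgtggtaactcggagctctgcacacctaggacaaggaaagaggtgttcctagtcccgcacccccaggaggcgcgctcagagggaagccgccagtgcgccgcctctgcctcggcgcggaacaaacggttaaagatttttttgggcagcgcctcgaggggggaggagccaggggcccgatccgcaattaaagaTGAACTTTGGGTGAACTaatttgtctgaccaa
The repeat was found on either strand in 7 of 32851 RefSeq promoters (0.0213%). The other genes of the retinoic acid list gave no common direction. Among its abundant members, the retinoic acid binding proteins *Crabp2* and *Crabp1* had fold changes of -0.19 and -0.52, with adjusted p of 0.795 and 0.498. Of 17 tested, *Rbp4* (a retinol carrier, treated with the visceral endoderm genes below) was called lower, 9 had a positive fold change, and the median was 0.04.

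Of 9 FGF ligands tested none was called, 5 had a positive and 4 a negative log2 fold change, and the median was 0.04. For 3 all *Tet*-TKO libraries lay below both host libraries (14.4% of all genes), and for none above (10.8%). *Fgf8* and *Fgf17*, which are made by the progenitors and hold back their differentiation, were lower in all *Tet*-TKO libraries but did not pass the test. *Fgf8* was at 214, 270.2, 169 and 140.5 CPM against 289 and 410.3 (log2 fold change -0.80, adjusted p = 0.316). *Fgf17* was at 41.5, 65.8, 67.4 and 61.0 CPM against 75.4 and 124 (-0.75, adjusted p = 0.278). Without host library 2 the log2 fold change was -0.35 for *Fgf17* (adjusted p = 0.862) and -0.51 for *Fgf8* (adjusted p = 0.852), where edgeR was fitted with a single host library. *Fgf4* was low in all libraries, at 2.02 to 3.49 CPM against 5.54 and 7.501. *Fgf3* overlapped, at 11.02 to 36.9 CPM and 11.1 to 30.8 CPM. Of 18 receptors and feedback genes of the pathway tested none was called. Of these, 12 had a positive and 6 a negative fold change, with a median of 0.20. For 3 all *Tet*-TKO libraries lay above both host libraries (10.8% of all genes) and for 1 below (14.4%). *Etv4*, an FGF-induced ETS factor and the most abundant of the 18, overlapped (-0.36, adjusted p = 0.714), as did *Dusp4* (-0.09) and *Il17rd* (0.20). *Dusp6*, an FGF-induced phosphatase, was at 42.0 to 52.2 CPM against 59.8 and 60.01 (-0.34, adjusted p = 0.389).

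Of 10 WNT ligands tested none was called and the median was 0.37. For 5 of them, *Wnt2*, *Wnt4*, *Wnt6*, *Wnt10a* and *Wnt11*, all *Tet*-TKO libraries lay above both host libraries (10.8% of all genes), with fold changes of 0.27 for *Wnt6* (adjusted p = 0.630) to 1.62 for *Wnt10a* (adjusted p = 0.438). For 1 they lay below (14.4% of all genes). This was *Wnt5b*, which was at 54.3, 63.4, 58.3 and 45.1 CPM against 78.3 and 92.5 (log2 fold change -0.62, adjusted p = 0.220). *Wnt3a* overlapped, at 15.9, 28.2, 13.5 and 14.7 CPM against 27.1 and 24.4, and *Wnt8a*, a ligand of the early posterior epiblast, overlapped as well (-1.07, adjusted p = 0.375). *Wnt5a*, which drives elongation movements, had a positive fold change (0.47, adjusted p = 0.516). Of 32 WNT targets and modulators tested none was called and the median was -0.05. *Ctnnb1*, which encodes the WNT effector beta-catenin, was at 233 to 267 CPM against 281 and 277 (-0.15, adjusted p = 0.686), and *Ccnd1* overlapped (-0.01). *Sp5*, a zinc finger factor induced by WNT, was at 115, 137, 68.5 and 59.1 CPM against 175 and 139 (-0.70, adjusted p = 0.496), and *Notum*, which encodes a secreted WNT inhibitor, was at 10.4 to 18.4 CPM against 35.4 and 27.1 (-1.11, adjusted p = 0.156).

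Other progenitor genes repeated this pattern of separate values without a call. *Epha5* was at 115, 173, 169 and 148 CPM against 236 and 323 (log2 fold change -0.88, SE 0.185, adjusted p = 0.0877). *Hes3*, a HES repressor of the caudal epithelium, was at 43.6, 70.8, 55.8 and 76.0 CPM against 89.2 and 122. *Sox2* was at 58.3, 97.1, 75.8 and 98.2 CPM against 109.6 and 119 (-0.47, adjusted p = 0.458). *Fgfbp3*, which encodes an FGF carrier protein, and *Hoxb1* were also below both host values in all *Tet*-TKO libraries, with fold changes of -1.02 and -0.52. *Pou5f1*, the pluripotency factor of the epiblast, overlapped (-0.60, adjusted p = 0.744), as did *Fst*, *Evx1*, *Evx1os*, *Sp8*, *Greb1*, *Gdf11*, *Gbx2*, *Grhl3* and *Mnx1*. Over all *Hox* genes no direction prevailed, with 35 tested, 0 called, 18 positive fold changes and a median of 0.03.

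The genotype difference was then set against that in the neighbouring cells, with an interaction term of cell group and genotype and the library as a block. Against T/Tbx6 cells, 2 of 12378 genes were called (0.0162%, *Ifngr2* and *Spink1*), and 6 passed an adjusted p of 0.05 (0.0485%). Of the progenitor genes, *Fgf17* and *Cyp26a1* were among these 6. The *Fgf17* fold change was 0.86 lower in caudal progenitors (SE 0.137, adjusted p = 0.00311), being 0.10 in T/Tbx6 cells, where CPM was 52.7, 74.8, 96.8 and 91.2 against 54.7 and 93.7. The *Cyp26a1* difference was -0.80 (SE 0.145, adjusted p = 0.0134), with a fold change of -0.88 in T/Tbx6 cells. Without host library 1 or host library 2 the adjusted p was 0.159 and 0.0857 for *Fgf17* and 0.246 and 0.219 for *Cyp26a1*. *Fgf8* pointed the same way (-0.92) but did not pass (adjusted p = 0.495). *Cdx4* had a fold change of -0.52 in T/Tbx6 cells and the difference of -0.61 did not pass (adjusted p = 0.765). The median of the 29 progenitor genes was -0.17 in T/Tbx6 cells.

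Against Nkx1-2/Sox2 cells none of 11592 genes was called and none passed an adjusted p of 0.05 with edgeR, while 664 had an unadjusted p under 0.05. The progenitor list had a median of -0.63 there. *Cdx4* was at 51.2, 62.9, 32.5 and 24.8 CPM in the *Tet*-TKO and at 166 and 175 CPM in the host Nkx1-2/Sox2 cells, a fold change of -1.98 (adjusted p = 0.0471 within those cells), and the difference of 0.89 from caudal progenitors did not pass (adjusted p = 0.897). The lower *Cdx4* level was thus seen in both *Nkx1-2* populations, and neither comparison showed it to be particular to caudal progenitors.

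**Figure D3:**
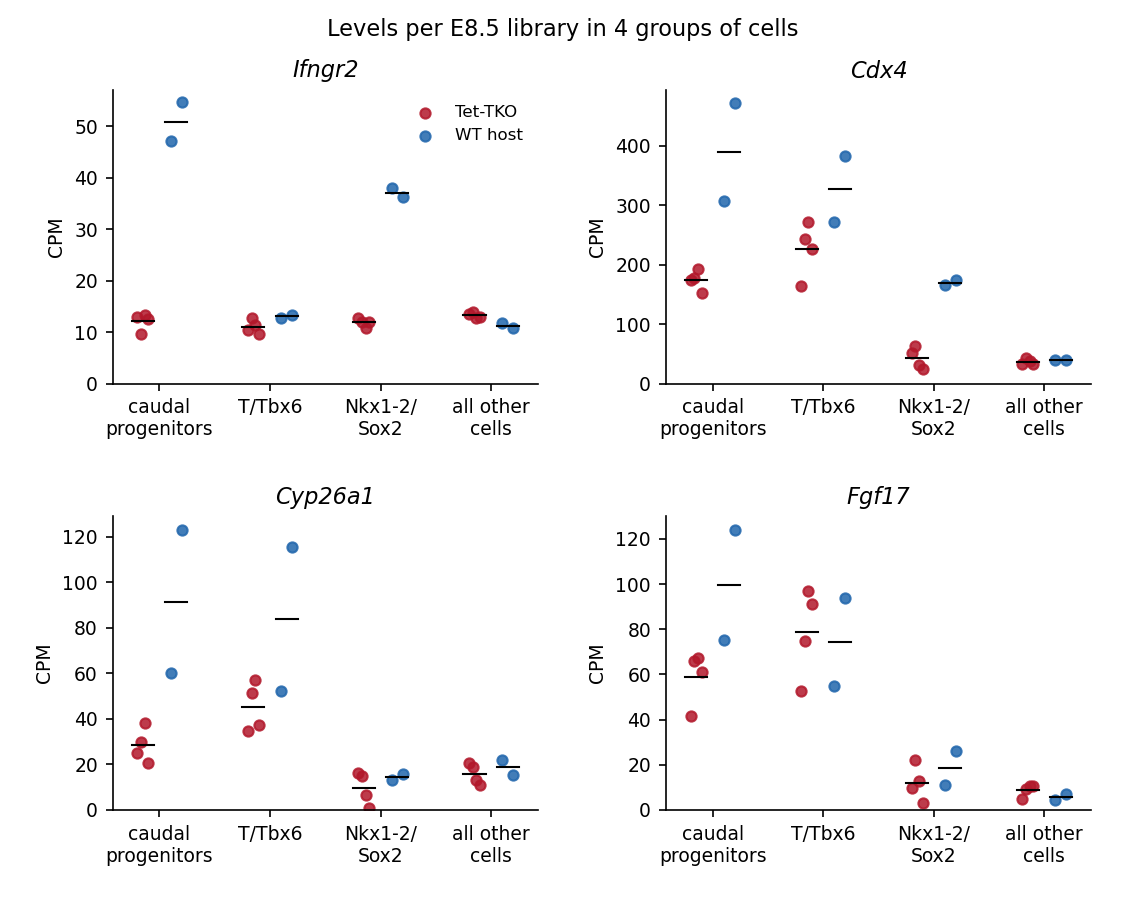
CPM (linear axes from 0) of *Ifngr2*, *Cdx4*, *Cyp26a1* and *Fgf17* in caudal progenitors, T/Tbx6 cells, Nkx1-2/Sox2 cells and all other kept cells of each E8.5 library; horizontal bars are group means. Host *Ifngr2* stands at 36.2 to 54.8 CPM in the 2 groups picked by *Nkx1-2* and at 10.8 to 13.5 CPM elsewhere, while *Tet*-TKO values stay between 9.67 and 14.0 CPM in every group.

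*Ifngr2*, which encodes the second chain of the interferon gamma receptor, gave a genotype difference that was larger in caudal progenitors than in T/Tbx6 cells by the interaction test. It lies on chromosome 16 (91547072-91565623, plus strand, mm10). In caudal progenitors the *Tet*-TKO libraries held 12.96, 9.67, 13.4 and 12.7 CPM and the host libraries 47.1 and 54.8 CPM. It fell by 2.05 on the log2 scale (SE 0.173, adjusted p = 0.00117). In T/Tbx6 cells the same gene was at 10.4, 12.8, 11.5 and 9.67 CPM against 12.8 and 13.5, and the difference of the 2 fold changes was -1.81 (SE 0.269, adjusted p = 0.00137). In Nkx1-2/Sox2 cells it was at 12.7, 11.97, 10.9 and 12.1 CPM against 38.0 and 36.2. The host caudal cells with *Nkx1-2* thus held a level that neither their *Tbx6* neighbours nor the remaining host cells (11.8 and 10.8 CPM) had, and the *Tet*-TKO cells did not. In E7.5 caudal progenitors *Ifngr2* was at 11.5 CPM (*Tet*-TKO) and 8.46 CPM (host). The fall was called in 18 of 21 alternatives. Without host library 1 or 2 the adjusted p was 0.0206 and 0.0458, and that of the difference from T/Tbx6 cells was 0.0708 and 0.0707.

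Genes of the allantois and lateral mesoderm ran the other way. All 12 tested had a positive fold change, with a median of 1.04, and for 6 of them every *Tet*-TKO library lay above both host libraries, beside 10.8% of all genes. None was called with edgeR, while DESeq2 called 2 higher (*Bmp4* and *Hand2*), beside 38 of 12482 genes. Without the filter on low counts edgeR called 4 higher, beside 104 of 24311 genes. *Bmp4*, which encodes a posterior and extraembryonic mesoderm signal, was at 80.0, 48.7, 75.03 and 73.3 CPM against 40.8 and 27.1 (log2 fold change 1.02, SE 0.239, adjusted p = 0.131). *Hand2*, a bHLH factor of lateral mesoderm, was at 37.0, 23.0, 47.4 and 61.3 CPM against 18.3 and 7.20 (1.66, adjusted p = 0.180). *Foxf1* was at 102, 55.3, 63.4 and 50.6 CPM against 48.8 and 26.0 (0.86, adjusted p = 0.429), and *Hand1* overlapped, at 48.3 to 163 CPM and 62.5 and 12.2 CPM. The values were uneven within genotypes, host library 2 being the lower host library for all of these. The summed list stood at 513, 263, 403 and 361 CPM in the *Tet*-TKO and at 263 and 115 CPM in the host. In all other cells it stood at 759, 676, 504 and 502 CPM against 407 and 306 CPM, so the higher level was not particular to caudal progenitors. Without host library 1 the median in caudal progenitors was 2.44, and without host library 2 it was 0.47.

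In T/Tbx6 cells the same 12 genes had a median of 0.00 and in Nkx1-2/Sox2 cells of 0.52. The difference from T/Tbx6 cells did not pass an adjusted p of 0.05 for any of them. Genes linked to the epithelial to mesenchymal transition included *Twist1*, a mesenchymal bHLH factor, at 123, 82.6, 133 and 125 CPM against 56.3 and 28.2 (log2 fold change 1.43, SE 0.272, adjusted p = 0.0593), and *Snai2* (1.60, adjusted p = 0.159). *Twist1* had much the same fold change in T/Tbx6 cells (1.41). Of the 24 genes of that list tested, none was called and 16 had a positive fold change, while the most abundant, *Vim* (0.64), *Cdh2* (-0.04) and *Fn1* (0.22), overlapped between genotypes. Of 18 genes of the BMP pathway none was called, 13 were positive and the median was 0.43. Its most abundant members, the BMP-induced *Id3* (0.17) and *Id1* (0.18) and the homeobox gene *Msx1* (-0.11), overlapped. Epiblast genes (15 tested, median -0.31), streak and nascent mesoderm genes (14, -0.20), presomitic mesoderm genes (13, -0.14) and neural genes (17, 0.02) had no called member.

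Imprinted genes, whose parental copies differ in DNA methylation, were mostly higher in the *Tet*-TKO caudal progenitors. Of 37 tested, 26 had a positive fold change and the median was 0.66. For 13 all *Tet*-TKO libraries lay above the host (10.8% of all genes) and for 3 below (14.4%). DESeq2 called 3 higher (*Impact*, *Snrpn* and *Zdbf2*) and 1 lower (*H13*), beside 38 and 86 of 12482 genes. Without the filter on low counts edgeR called 8 higher, beside 104 of 24311 genes. With the rule applied to thinned cells the median was 0.43 over 27 genes and none was called. In the edgeR fit as described 1 was called: *Impact*, which encodes a translational regulator and is expressed from the paternal copy, rose from 30.01 and 32.7 CPM in the host to 66.1, 64.3, 71.1 and 70.7 CPM (log2 fold change 1.13, SE 0.135, adjusted p = 0.00749). Over 21 alternatives the fold change stayed between 1.07 and 1.33 and *Impact* was called in 7. The call was lost with any 1 library left out, whichever it was, with an adjusted p of up to 0.133.

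Other imprinted genes passed an adjusted p of 0.05, 3 of them higher. *Snrpn* was at 231, 207, 253 and 268 CPM against 121 and 86.9 (log2 fold change 1.20, adjusted p = 0.0126), *Ndn* at 115, 108, 137 and 119.6 CPM against 53.8 and 66.4 (1.00, adjusted p = 0.0172) and *Zdbf2* at 91.7, 97.9, 155 and 142 CPM against 51.7 and 44.3 (1.33, adjusted p = 0.0324). *H13* was lower, at 18.7, 17.4, 20.8 and 18.2 CPM against 39.6 and 38.2 (-1.04, adjusted p = 0.0172), and *Mcts2*, the imprinted gene inside its intron, was higher in all *Tet*-TKO libraries (0.73, adjusted p = 0.166). *Mest* had a fold change of 0.69, and *Gnas* (-0.01) and *Meg3* (0.37) overlapped. The directions of *Impact*, *Snrpn*, *Ndn*, *Zdbf2* and *H13* were shared by both neighbouring groups. In T/Tbx6 and Nkx1-2/Sox2 cells the fold changes were 0.73 and 0.80 for *Impact* and 1.14 and 1.38 for *Snrpn*. They were 0.72 and 0.98 for *Ndn*, 1.51 and 1.64 for *Zdbf2* and -1.55 and -1.43 for *H13*. *Mest* had -0.25 in T/Tbx6 cells and 0.23 in Nkx1-2/Sox2 cells. The summed imprinted list was also higher in all other *Tet*-TKO cells (7737, 7609, 7534 and 7459 CPM against 5654 and 4869 CPM). Of 13 genes of the methylation machinery none was called, and the most abundant, *Mbd3* (-0.08), *Uhrf1* (-0.19) and *Dnmt1* (0.02), overlapped. *Tdg*, the glycosylase that removes oxidised methylcytosine, had a fold change of -0.85 (adjusted p = 0.122).

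**Figure D4:**
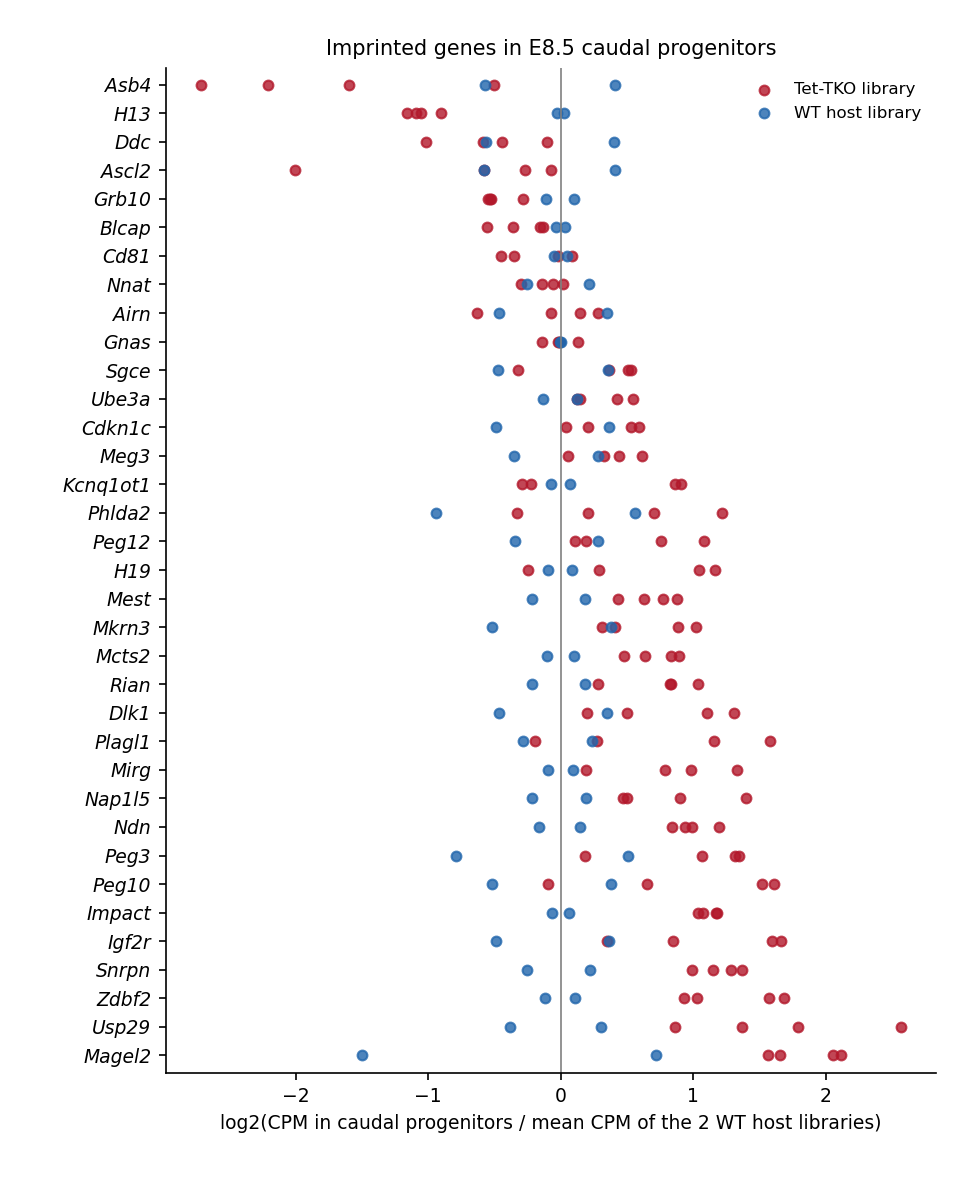
Imprinted genes in caudal progenitors at E8.5, each library's CPM divided by the mean of the 2 WT host libraries (log2 scale), for the 35 of 37 tested genes with a value above 0 in every library. Red *Tet*-TKO points lie right of both host points for *Impact*, *Snrpn*, *Ndn* and *Zdbf2* and left of them for *H13*.

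Several called genes did not belong to any developmental list. *Wdfy1*, an endosomal FYVE-domain gene, rose to 41.3, 38.0, 43.0 and 37.4 CPM from 8.75 and 9.41 CPM (log2 fold change 2.14, adjusted p = 0.00142), and by 3.05 in T/Tbx6 cells (adjusted p = 0.00289). *Spata7* rose by 2.25 (adjusted p = 0.00936), while *Sdsl* and *Mocs1* fell by 4.38 and 3.36 (adjusted p = 0.00883 for both). *Cmtm8* (-1.85), *Cyba* (-1.53), *Hist1h4i* (-1.91), *Gstm5* (-1.33) and *Rnf130* (-1.25) were called lower as well, and these 5 were named after their values had been seen. Another set was made of near-identical gene copies. *Rps3a1* was at 247, 313, 377 and 326 CPM against 4273 and 4548, and its copy *Rps3a3* at 4712, 4540.0, 4109 and 4182 CPM against 781 and 316, whereas their sum was 4486 to 4959 CPM against 5054 and 4864. *Rps13-ps1*, *Rps15a-ps8*, *Hmga1b*, *Eif3j2* and *Pcna-ps2* were likewise called higher, while *Rps13*, *Rps15a*, *Hmga1*, *Eif3j1* and *Pcna*, their near-identical partners, were not called. All of these are uncertain as expression changes, since counting can split reads between such copies. *Xist*, the RNA of the inactive X chromosome, fell from 297 and 369.9 CPM to between 1.96 and 14.9 CPM, and its part in the other results was not tested.

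Visceral endoderm genes made up 8 of the 20 genes that fell, and their calls depended on 3 host cells. A list of these genes was drawn up after the values had been seen, and 8 of its 15 tested members were called lower (*Apob*, *Apom*, *Ttr*, *Amn*, *S100g*, *Apoa1*, *Apoa2* and *Rbp4*). *Ttr*, a thyroid hormone carrier, was at 0.668 to 3.49 CPM in the *Tet*-TKO and at a mean of 107 CPM ± 13.9 (SD, n = 2) in the host. The summed list was at 26.7 to 47.5 CPM in the *Tet*-TKO and at 365 and 568 CPM in the host, where a single cell held 46.2% and 87.5% of its UMIs. Without the 3 host caudal progenitors that had at least 1% of UMIs in this list, none of the 10 list genes then tested was called, their median was still -2.52, and 14 genes were called in all. The median of the progenitor list was then -0.62. Globin and other erythroid genes moved the same way (9.52 to 388 CPM summed in the *Tet*-TKO, 1097 and 7369 in the host). Of 10 tested, 0 were called by edgeR and 5 by DESeq2, beside 86 genes called lower by DESeq2 over all. With edgeR 4 were called lower without the filter on low counts and 4 without doublet calls, beside 146 and 10 genes over all. The erythroid genes were at 20017 and 48818 CPM in all other host cells. The part of free RNA or of mixed cells in these levels was not tested.

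At E7.5 each genotype had 1 library, so values carry counting intervals only and no test was made. Caudal progenitors were 2.58% of *Tet*-TKO cells (exact 95% interval 2.15% to 3.07%) and 2.31% of host cells (1.96% to 2.70%) after thinning, and the intervals overlapped. Before thinning they were 8.80% and 4.37%, from cells of different depth (medians of 23981 and 14788 UMIs in caudal progenitors). *Pou5f1* was detected in 90.2% and 93.5% of them after thinning, against 5.26% to 53.5% at E8.5, and its level was 406 CPM (*Tet*-TKO) and 507 CPM (host). *Sox2* was detected in 10.6% of the *Tet*-TKO (interval 5.75% to 17.4%) and 18.8% of the host caudal progenitors (12.99% to 25.9%).

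Most progenitor genes were also lower in the E7.5 *Tet*-TKO library. Of 27 list genes with at least 30 UMIs over both libraries, 18 had a counting interval of the *Tet*-TKO to host ratio below 0 on the log2 scale and 6 above, and the median was -0.82. Of all 11244 genes with that many UMIs, 2218 had an interval below 0 and 1461 above, and their median was -0.06. *Cdx1* was at 42.1 CPM against 219 CPM in the host (log2 ratio -2.38). *Wnt3a* was at 5.83 and 27.0 CPM (-2.21), *Hes3* at 4.61 and 26.2 CPM (-2.51) and *Sox2* at 13.9 and 47.4 CPM (-1.77). *T* was at 236 and 302 CPM and *Nkx1-2* at 77.1 and 156 CPM. The rule takes 1 UMI at any depth, and the *Tet*-TKO caudal progenitors were deeper (medians of 23981 and 14788 UMIs). They held a median of 1 UMI of *Nkx1-2* against 2 in the host, and of 3 UMIs of *T* in both. E7.5 levels were not taken from thinned cells, so the part of depth in these ratios was not tested. *Cdx4*, not yet strongly on, was at 32.3 and 42.9 CPM (-0.41).

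**Figure D5:**
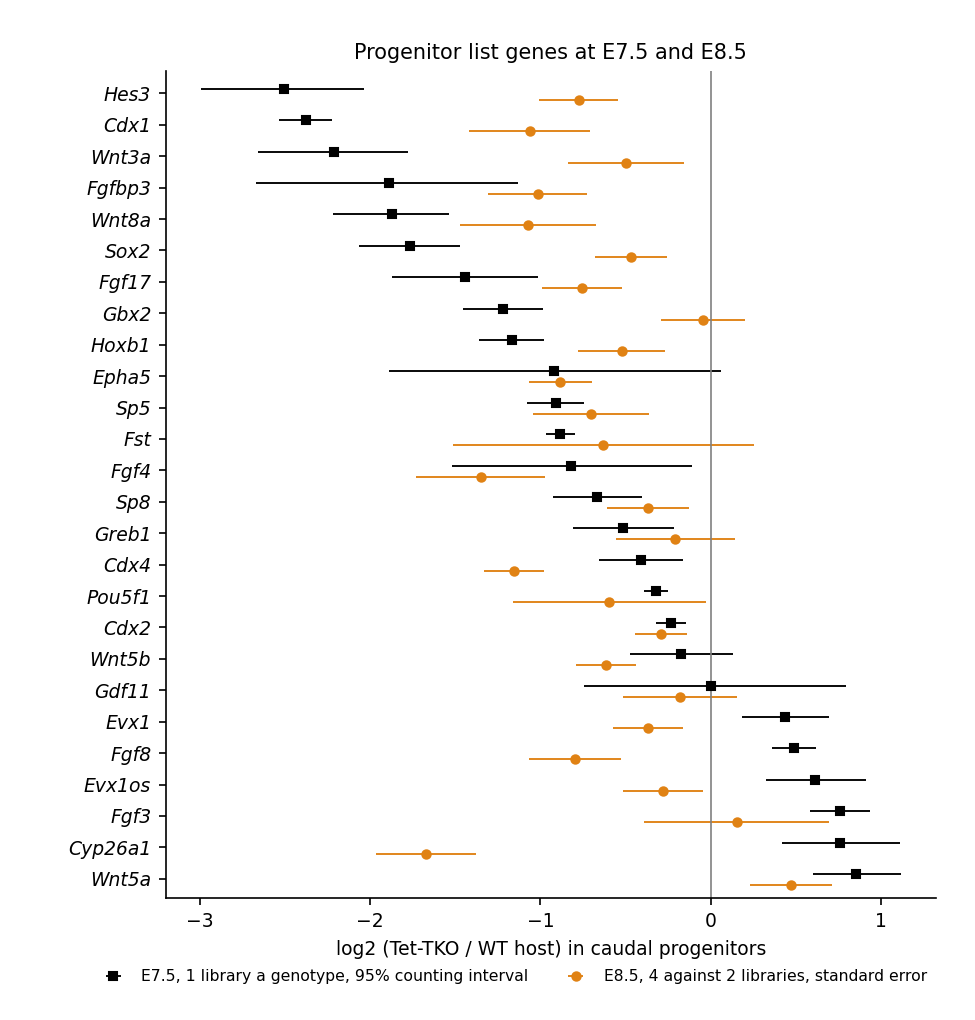
Log2 ratio of *Tet*-TKO to WT host in caudal progenitors for 26 of the 27 progenitor list genes with at least 30 UMIs at E7.5; black squares are E7.5 with 95% counting intervals (1 library per genotype) and orange circles are E8.5 with standard errors (4 against 2 libraries). *Hes3*, *Cdx1* and *Wnt3a* lie furthest left at E7.5, and *Fgf8* and *Cyp26a1* lie right of 0 at E7.5 and left of it at E8.5.

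*Fgf8* and *Cyp26a1* stood on the other side of 0 at E7.5, at 179 and 127 CPM (log2 ratio 0.49, interval 0.36 to 0.62) and at 30.4 and 17.9 CPM (0.76, interval 0.42 to 1.11). *Fgf3* was at 113 and 66.9 CPM (0.76). Allantois and lateral mesoderm genes were again higher in the *Tet*-TKO, with 11 of 12 intervals above 0 and a median of 1.17. Their summed levels were 623 and 333 CPM, beside 472 and 330 CPM in all other cells. In caudal progenitors *Bmp4* was at 117 and 61.3 CPM and *Hand2* at 22.9 and 7.46 CPM. Of 18 BMP pathway genes 14 had an interval above 0. *Impact*, *Snrpn* and *H13* had the same direction as at E8.5, *Impact* being at 52.0 and 21.8 CPM, *Snrpn* at 281 and 149.7 CPM and *H13* at 17.5 and 48.0 CPM, while the median of all 37 was 0.19.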

How the data were processed

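The deposited files hold raw UMI counts per gene and cell, 1 matrix per library (10x Genomics 3′), over 55422 features. Per the study's methods, the authors used Cell Ranger with mm10 and the GRCm38.92 annotation, to which tdTomato was added, and they name a later version of Cell Ranger than the 3.1.0 in the file headers. Cells were filtered and picked as described above, and counts were summed per library, with groups taken from the labels. Genotypes at E8.5 were compared with edgeR 4.0.16 (filterByExpr with a minimum count of 10, TMM, robust quasi-likelihood, R 4.3.3), differences between cell groups with an interaction term, and shares with an exact permutation test over libraries (numpy 2.4.6). DESeq2 1.42.0 was an alternative. CPM values are counts per 1000000 of the summed UMIs. Doublets were called with Scrublet in scanpy 1.11.5 and kept. The code was tested on simulated data.

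Gene positions come from GENCODE on mm10 and promoters from RefSeq on GRCm38.p6. Intervals are exact 95% binomial or Poisson and cover counting error only. Any 2 libraries shared at most 28 barcodes. The members and gene lists were chosen with earlier results of these data known. Named were the progenitor list, the called genes of each other list with at most 3 of its genes highest in CPM, the 10 called genes with the largest rise and the 10 with the largest fall whose genotypes did not overlap (leaving out the rule genes, tdTomato, sex-linked genes, and names of Gm plus digits or ending in Rik), and the called genes of the interaction tests. *Hand2*, *Twist1*, *Snai2*, *Snrpn*, *Ndn*, *Zdbf2*, *H13*, *Mcts2*, *Tdg*, *Dusp6*, *Notum*, *Hoxd9*, *Dll1*, *Xist*, the higher WNT ligands, the cell markers and the visceral endoderm list were chosen outside this rule, after their values had been seen. A few genes are not reported here by name, and they remain in the counts and medians of their lists.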

Additional observations from a re-analysis of the deposited data

Results flagged for a closer look

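In 56 groups of 4 *Tet*-TKO libraries, 5 had 1 library further from the rest than Dixon's 95% limit for 4 samples, and chance gives about 1 in 20. The gap was 0.838 of the range for *Wnt3a* (28.2 CPM in library 2, 13.5 to 15.9 CPM in the others), 0.880 for *Fgfbp3* (17.6 CPM in library 3, 33.1 to 35.2 CPM in the others) and 0.917 for *Grb10* (172 CPM in library 3, 143 to 146 CPM in the others). It was 0.860 for *Hba-x* (115 CPM in library 3, 3.51 to 19.02 CPM in the others, with 1 cell holding 93.6% of the erythroid UMIs of library 3) and 1.0 for *Apob*, which had a UMI in library 2 and none in the others.

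The genotype difference of 2 genes was not the same in caudal progenitors and T/Tbx6 cells by the interaction test. *Ifngr2* differed by -1.81 (log2) and *Spink1*, a gut endoderm gene, by -1.59 (adjusted p = 0.00350). The *Spink1* adjusted p was 0.157 without *Tet*-TKO library 1, 0.0427 without *Tet*-TKO library 2, 0.0708 without host library 1 and 0.0194 without host library 2, so the call was lost in each. *Spink1* was at 1.17 to 14.4 CPM in *Tet*-TKO and at 182 and 41.5 CPM in host caudal progenitors, and at 851 and 190 CPM in all other host cells. The part of endoderm RNA in it was not tested.

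*Fgf8* and *Cyp26a1* had a log2 ratio of 0.49 and 0.76 in the E7.5 library pair, while every E8.5 *Tet*-TKO library lay below both host libraries. This difference between stages was not tested.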

How the results depend on the processing

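The number of genes called in caudal progenitors moved with the processing, while of 54 genes followed by name all but *Pou5f1* kept their direction. Many of them were named because they were called or after their values had been seen. The settings also share most of their cells, so a kept direction is no independent support. Against 32 genes, DESeq2 called 124, no filter on low counts 250, the rule applied to cells thinned to 5000 UMIs 15, at least 2 UMIs of both genes 13, removal of cells with notochord or gut UMIs 12, removal of doublet calls 19, equal cell numbers 16, and an adjusted p of 0.05 with no minimum fold 94. With 1 library left out the count was between 6 and 30, falling to 6 without host library 2, 12 without host library 1 and 18 without *Tet*-TKO library 3. Settings chosen after seeing the data gave 14 without the 3 cells rich in visceral endoderm UMIs, 17 without those and erythroid-rich cells, 74 with *Tet*-TKO libraries 1 and 2 only and 302 with libraries 3 and 4 only. With *Tet*-TKO libraries 1 and 2 summed and libraries 3 and 4 summed, 38 genes were called, 27 of them among the 32. No imprinted gene was called in that fit. The cause of these shifts in number was not tested. The difference from T/Tbx6 cells gave 2 calls, 12 without the filter and 0 to 3 with 1 library left out (0 without host library 1), and that from Nkx1-2/Sox2 cells 0, 8 and 0 to 2. Fitted with the shared replicate number as a block (libraries 1 and 2 of each genotype), 180 genes were called, among them *Cyp26a1* lower, *Foxf1*, *Hand1* and *Hand2* higher and 8 erythroid genes lower, with a median of 0.39 for the imprinted list and -0.30 for the progenitor list, and the E8.5 share of member cells differed by 0.969 percentage points. The study speaks of a matching host for each sample, but the labels do not say that equal numbers share embryos, and the 2 pairs' deviations correlated at 0.414 over 5373 genes. The E8.5 share of member cells (caudal progenitors) kept its direction in all settings, differing by 0.741 to 1.07 points with 1 library left out and by 0.387 points at 3000 UMIs. The E8.5 share of members with Sox2 differed by -21.6 points without host library 1, -6.75 without host library 2, -5.74 at 3000 UMIs and -6.34 without thinning, against -14.2. For these genes, 968 alternative values kept direction and side of the threshold, 52 passed it, 96 no longer did and 1 changed sign (*Pou5f1*, 0.32 without WT host replicate 1, -1.12 without WT host replicate 2). Between 73 and 416 caudal progenitors per E8.5 library limit the depth.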

Other observations

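Glycolysis genes were mostly a little lower in *Tet*-TKO caudal progenitors at E8.5 and did not pass the test. Of 20 tested 0 were called with edgeR, 17 had a negative fold change, 7 had all *Tet*-TKO libraries below both host libraries (14.4% of all genes), and the median was -0.17. *Gapdh* (-0.07) and *Ldha* (-0.21) overlapped. *Pkm*, which encodes pyruvate kinase, was at 1832, 1897, 1844 and 1967 CPM in the *Tet*-TKO and at 2638 and 2788 CPM in the host (log2 fold change -0.52, SE 0.103, adjusted p = 0.0674), and at E7.5 it was at 1726 and 2691 CPM. The S phase list (20 genes) had a median of -0.05 and the G2/M list (20 genes) of -0.02, with 0 called in either. Early response and stress genes, which can rise during dissociation, had 0 of 18 called with edgeR and a median of 0.25. Of these, 16 had a positive fold change, 5 had all *Tet*-TKO libraries above both host libraries (10.8% of all genes) and 0 had all below (14.4%), and their part in the other results was not tested. *Ier2* was at 187 to 239 CPM against 145 and 164 CPM.

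Genes of the germline that are often held silent by methylation were mostly too low to test, 6 of 22 passing the filter on low counts and 0 being called. Of the 6, 4 had a positive and 2 a negative fold change, with a median of 1.23. For 3 all *Tet*-TKO libraries lay above both host libraries (10.8% of all genes) and for 0 below (14.4%). *Xlr3b* was at 7.30, 7.61, 14.4 and 13.03 CPM in the *Tet*-TKO and at 4.17 and 3.32 CPM in the host (log2 fold change 1.46, adjusted p = 0.213). Of 18 genes of the Notch list tested 0 were called, and the median was -0.05. For 2 all *Tet*-TKO libraries lay above both host libraries (10.8% of all genes) and for 4 below (14.4%). In that list, *Hes1* was at 66.1, 61.6, 145 and 181 CPM against 53.8 and 57.0 CPM (1.02, adjusted p = 0.438). *Dll1*, the ligand switched on in committed mesoderm, was at 4.84 to 11.1 CPM against 13.3 and 13.3 CPM (-0.95, adjusted p = 0.412). *Hoxd9* was at 51.2, 30.9, 38.2 and 36.2 CPM against 18.8 and 15.5 CPM (1.19, adjusted p = 0.0965).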
